A study of Mus musculus with 6 samples.

Results

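The complement genes described here are 35 mouse genes of complement components, regulators and receptors, chosen by name, among 22180 genes measured in primary articular chondrocytes. Of the 35, 32 had a probe set that names them alone, and these were examined. C3 and Cfd had no listed probe set, and Masp2 was read only by a probe set that also names another gene, so these 3 were not analysed here. All cells came from the knee cartilage (femoral condyles and tibial plateaus) of wild-type ICR mice aged 5 days and were grown as a monolayer in medium with serum. Treated cells received IL-1β, a proinflammatory cytokine given at 1 ng/ml unless the methods state otherwise, and were harvested for RNA after 24 h, whereas the controls were left untreated. There were 3 arrays of each group, labeled as biological replicates 1 to 3. The labels do not say whether the replicates came from separate animals, so p-values measure the spread between these cultures.

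Complement is a cascade of plasma and tissue proteins that marks surfaces for removal and punctures membranes. The classical pathway begins when C1q binds its target and activates the proteases C1r and C1s. The lectin pathway begins with mannose-binding lectins and their MASP proteases, and the alternative pathway is driven by factor B, factor D and properdin. All routes lead to cleavage of C3 and then C5, to the anaphylatoxin peptides and to the membrane attack complex, and soluble and membrane-bound inhibitors hold each step in check. Most plasma complement comes from the liver, but many other cells make components locally, and cytokines such as IL-1β are known inducers of several of them.

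The main result was a rise of a subset of complement genes with IL-1β, led by the C1 inhibitor gene Serping1 and the factor B gene Cfb. Values are log2 signals normalized by the authors with RMA, compared with limma and adjusted over all 22180 genes, and a gene passed at an adjusted p under 0.05. By this test 10 of the 32 genes (31.2%) were higher with IL-1β, against 8.32% of all genes tested. The genes were chosen with earlier results of these data known, so this share is a description and not an independent test. None of the 32 was lower, against 8.88% of all genes (limma called 0 at the adjusted p and 1, C8a, at an unadjusted p under 0.05, and the methods' t-test called 0). All 3 IL-1β arrays lay above all 3 untreated arrays for 13 of the 32 genes, against 15% of all genes, and below them for 1, against 18%. The paper's methods also require an absolute log fold change over 1, a limit applied to the limma calls here only after seeing the data. With a log2 difference over 1 required as well, 4 of the 32 were higher, against 2.25% of all genes. The methods' t-test with that limit called 4 of the 32 higher too, and 463 of all 22180 genes. The median log2 difference of the 32 genes was 0.09, and that of all genes was -0.02. The arrays give no detection call, so the signals of chemosensory receptor genes, which are expected to be silent here, were used to set a background level of 4.57. Of the 32 genes, 12 had an untreated mean above this level and 15 had an IL-1β mean above it, and for 17 both means lay under it. In RNA from whole cultures, fewer cells that express a gene and less RNA per cell cannot be told apart.

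**Figure D1:**
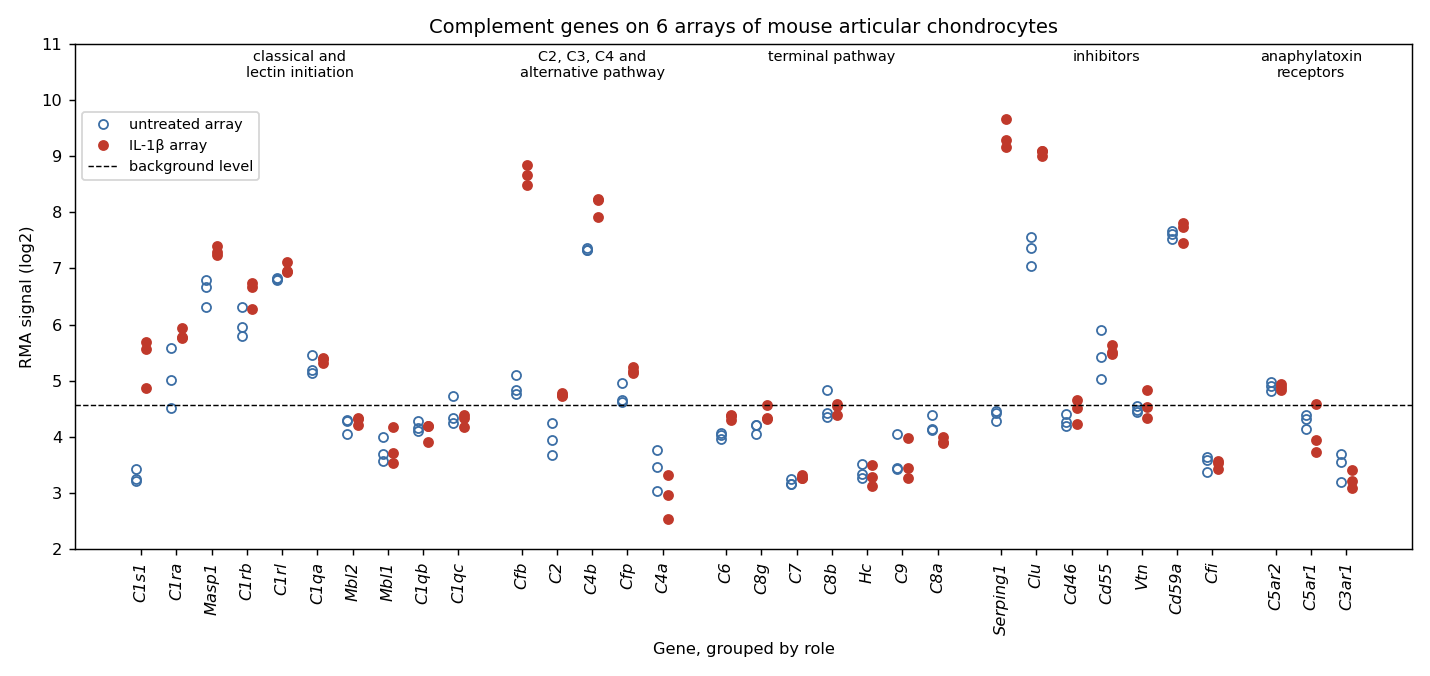
RMA signal on the log2 scale (y axis) of 32 complement genes (x axis, grouped by role) on 3 untreated arrays (open circles) and 3 IL-1β arrays (filled circles), with the background level of 4.57 as a dashed line. Serping1 and Cfb move from near the background level to between 8.48 and 9.67 on the IL-1β arrays, and the genes of the terminal pathway stay near or under the line in both groups.

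Chondrocyte markers were bright in every culture, with means over the 6 arrays of 9.76 to 12.40 for 8 of 8 genes, and all 8 were lower with IL-1β. Beside this and the marker counts below, 8.32% of all genes were higher and 8.88% lower. Of 12 macrophage markers, 7 lay under background in both groups, among them Ptprc, the gene of the pan-leukocyte antigen CD45, and Adgre1, which encodes F4/80. Summed signals are sums on the linear scale, where the brightest markers weigh most, given as log2. That of the 12 macrophage markers ran from 8.30 to 8.42 on untreated and from 8.52 to 8.65 on IL-1β arrays. Only Cd68 was called higher (log2 difference 1.22) and only Laptm5 lower (-1.02). Of 5 hepatocyte markers, 3 lay under background in both groups. The summed signal of the 5 ran from 6.36 to 6.57 on untreated and from 6.21 to 6.59 on IL-1β arrays. The fibroblast and synovium markers, of which 3 of 6 were higher (Pdgfra, Col3a1 and Fap) and 1 lower, had summed signals of 11.79 to 11.94 and 11.96 to 12.16. Of 6 neutrophil markers, 4 lay under background in both groups, and the summed signals were 6.43 to 6.80 and 6.21 to 6.57. Of 6 endothelial markers only Tek passed, as higher, with summed signals of 6.75 to 7.01 and 6.88 to 6.998. The part of these shifts in the complement values was not tested.

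Among the genes of classical and lectin initiation, 3 of the 10 measured were higher with IL-1β, against 8.32% of all genes. All 3 encode proteases. C1s1 encodes C1s, the protease that cleaves C4 and C2. Its log2 signal was 3.25, 3.42 and 3.21 on untreated arrays and 5.69, 4.87 and 5.57 on IL-1β arrays, so that the groups did not overlap and IL-1β replicate 2 was the lowest of its group. The difference of the means was 2.09 (SE 0.20, adjusted p = 1.42e-04 from limma). Since the untreated mean lay under background, C1s1 was at least 1.75-fold higher, where each untreated array under the background level was set to that level. A second probe set of C1s1 gave a smaller difference, 0.54, and the mean of both gave 1.31 (SE 0.12, adjusted p = 1.30e-04). That second probe set was the brighter one in untreated cells (mean 3.98 against 3.29), and the one reported was brighter only through the IL-1β arrays.

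C1ra, which encodes the protease C1r that activates C1s, had a log2 signal of 4.51, 5.02 and 5.58 without IL-1β and 5.75, 5.78 and 5.95 with it. The untreated arrays of C1ra were spread widely, and the groups did not overlap. Its difference was 0.79 (SE 0.23, adjusted p = 0.0458 from limma), and with 1 array left out it passed only without untreated replicate 3 (adjusted p = 0.00457, and 0.0897 to 0.126 without any other array). Its near-copy C1rb had 5.80, 6.31 and 5.95 on untreated arrays and 6.75, 6.28 and 6.68 on IL-1β arrays. The groups overlapped for C1rb through IL-1β replicate 2, and its difference of 0.55 (SE 0.17) did not pass (adjusted p = 0.0547), with an interval from 0.17 to 0.92. Without IL-1β replicate 2 or untreated replicate 2 it passed (adjusted p = 0.0226 and 0.0198), as it did with array weights, with dim genes left out and with limma's robust, trended prior (adjusted p = 0.00321 to 0.0299). Probes of such near-copies may bind RNA of both, which was not tested, so the values of C1ra and C1rb are uncertain as measures of each gene alone.

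Masp1, whose transcripts encode the lectin pathway protease MASP-1 and, by alternative splicing, MASP-3, had 6.32, 6.80 and 6.67 on untreated arrays and 7.29, 7.24 and 7.40 on IL-1β arrays. All treated arrays lay above all untreated ones, a 1.64-fold rise (log2 difference 0.71, SE 0.13, adjusted p = 0.00590 from limma). C1rl, a C1r-like protease gene, was steady on the untreated arrays at 6.80, 6.83 and 6.81 and lay above them on all IL-1β arrays at 7.12, 6.93 and 6.96. This difference of 0.19 did not pass (adjusted p = 0.224), with a 95% interval from -0.02 to 0.41.

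None of the C1q and mannose-binding lectin genes passed, and all of them but C1qa lay under background in both groups. The C1q chain gene C1qa had means of 5.26 ± 0.18 (SD, n = 3 arrays) without and 5.37 ± 0.05 (SD, n = 3 arrays) with IL-1β, and a difference of 0.12 (interval -0.14 to 0.37). C1qb and C1qc, the genes of the other chains, lay under background in both groups, with differences of -0.08 and -0.14. Macrophages are a well-known source of C1q. Of the 12 macrophage markers, 7 lay under background in both groups. Cd68 was the only one called higher (means 5.69 untreated and 6.91 with IL-1β) and Laptm5 the only one called lower (5.78 and 4.75). The summed signal given above was higher on all IL-1β arrays, but it includes Cd68, and no sum without Cd68 was taken. The part of these marker shifts in the C1q values was not tested. The mannose-binding lectin genes Mbl1 and Mbl2, known chiefly as liver products, also lay under background, with differences of 0.05 and 0.08.

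C1rl, C1ra, C1s1 and C1rb follow each other on chromosome 6 with no other protein-coding gene between them in the RefSeq annotation. The bases just before the annotated starts of C1ra, C1rb and C1s1 are shown because these neighbours had measured differences from 0.55 to 2.09 and because the first pair carries a copied stretch. The capitals in C1ra and C1rb mark that stretch of 99 bases, of which 93 (93.9%) are identical. As marked, it ends at the start of C1ra and lies 152 to 250 bases before the annotated start of C1rb. Only the last bases of the C1ra window were compared with the first bases of the C1rb window. The ends and length of the stretch are therefore set by these windows, and likeness beyond them was not examined. The capitals in C1s1 mark a match to TTGCNNAA, a core of C/EBP sites, on the reverse strand. Sequences are from RefSeq, build GRCm38.p6, 250 bases each, 5′ to 3′.
C1ra, chr6:124512371-124512620, plus strand: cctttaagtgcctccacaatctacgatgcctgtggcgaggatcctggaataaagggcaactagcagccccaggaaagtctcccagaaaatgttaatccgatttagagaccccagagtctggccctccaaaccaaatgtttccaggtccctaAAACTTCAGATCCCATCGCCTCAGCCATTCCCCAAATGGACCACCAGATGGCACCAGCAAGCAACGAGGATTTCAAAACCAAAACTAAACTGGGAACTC
C1rb, chr6:124570180-124570429, plus strand: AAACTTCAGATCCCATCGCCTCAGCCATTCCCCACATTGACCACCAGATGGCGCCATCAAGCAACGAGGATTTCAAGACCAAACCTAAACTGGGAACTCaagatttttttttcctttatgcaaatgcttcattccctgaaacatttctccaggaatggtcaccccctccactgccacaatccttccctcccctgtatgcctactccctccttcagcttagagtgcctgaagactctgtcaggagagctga
C1s1, chr6:124542360-124542609, minus strand: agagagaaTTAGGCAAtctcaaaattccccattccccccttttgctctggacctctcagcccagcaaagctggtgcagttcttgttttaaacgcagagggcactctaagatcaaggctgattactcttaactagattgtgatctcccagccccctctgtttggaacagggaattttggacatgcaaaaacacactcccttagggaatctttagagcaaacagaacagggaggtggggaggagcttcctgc
Promoters were found in that table for 26 of the 35 genes (29 starts). Within 250 bases before the start, on both strands, TTGCNNAA occurred at 6 of the 29 (C1rb, C1rl, C1s1, C3, C5ar2 and C9) and at 9.56% of 32851 promoters of all genes. TTCNNNGAA, a core of STAT sites, occurred at 4 of the 29 (C1rb, C7, C8a and Masp2), where all promoters had 7.02%. Its match in C1rb lies outside the bases in capitals. The NF-κB consensus was matched only in C1qc, against 7.25% of all promoters, and the IRF-type core, which is GAAA, any 2 bases and GAAA again, only in Cd59a, against 2.98%. A match is a description of the letters and was not linked to any factor here. The motifs do not overlap each other in these promoters. No entry was matched for Serping1, Cfb, Clu, C4b, C4a, C2, Masp1, C1qa and Cfi.

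Of the genes of the central and alternative steps, 4 of the 5 measured were higher, against 8.32% of all genes. C3 and Cfd belong to these steps and were not analysed. Cfb encodes factor B, which supplies the protease of the alternative pathway convertase. Its log2 signal was 4.83, 4.77 and 5.09 on untreated arrays and 8.85, 8.48 and 8.66 on IL-1β arrays. Untreated cells thus lay just above background and treated cells far above it. Cfb rose 13.6-fold (log2 difference 3.77, SE 0.13, adjusted p = 5.50e-07 from limma).

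C2, the classical pathway counterpart of factor B, is the next protein-coding gene after Cfb on chromosome 17. Its log2 signal was 3.94, 4.25 and 3.67 without IL-1β and 4.74, 4.78 and 4.73 with it, from under to just over background. C2 was at least 1.13-fold higher (difference as measured 0.80, SE 0.14, adjusted p = 0.00460 from limma). C4b, which encodes complement C4, was well above background in both groups, with 7.37, 7.33 and 7.33 untreated and 8.25, 7.92 and 8.21 treated. It is separated from Cfb by 5 protein-coding genes in the RefSeq annotation, which placed none under the name C4a. C4b rose 1.72-fold (log2 difference 0.78, SE 0.11, adjusted p = 0.00131 from limma). The probe set of its near-copy C4a, which encodes the sex-limited protein Slp, lay under background in both groups (3.42 and 2.94) and did not pass (-0.48, adjusted p = 0.215). As with C1ra and C1rb, the signals of such copies may not be separate on the array.

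Cfp encodes properdin, which stabilizes the alternative pathway convertase. It had 4.62, 4.95 and 4.66 without IL-1β and 5.17, 5.25 and 5.14 with it, with no overlap. The difference of Cfp was 0.44 (SE 0.11, adjusted p = 0.0266 from limma), and with 1 array left out it passed only without untreated replicate 2 (adjusted p = 0.00801, and 0.0575 to 0.101 without any other).

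**Figure D2:**
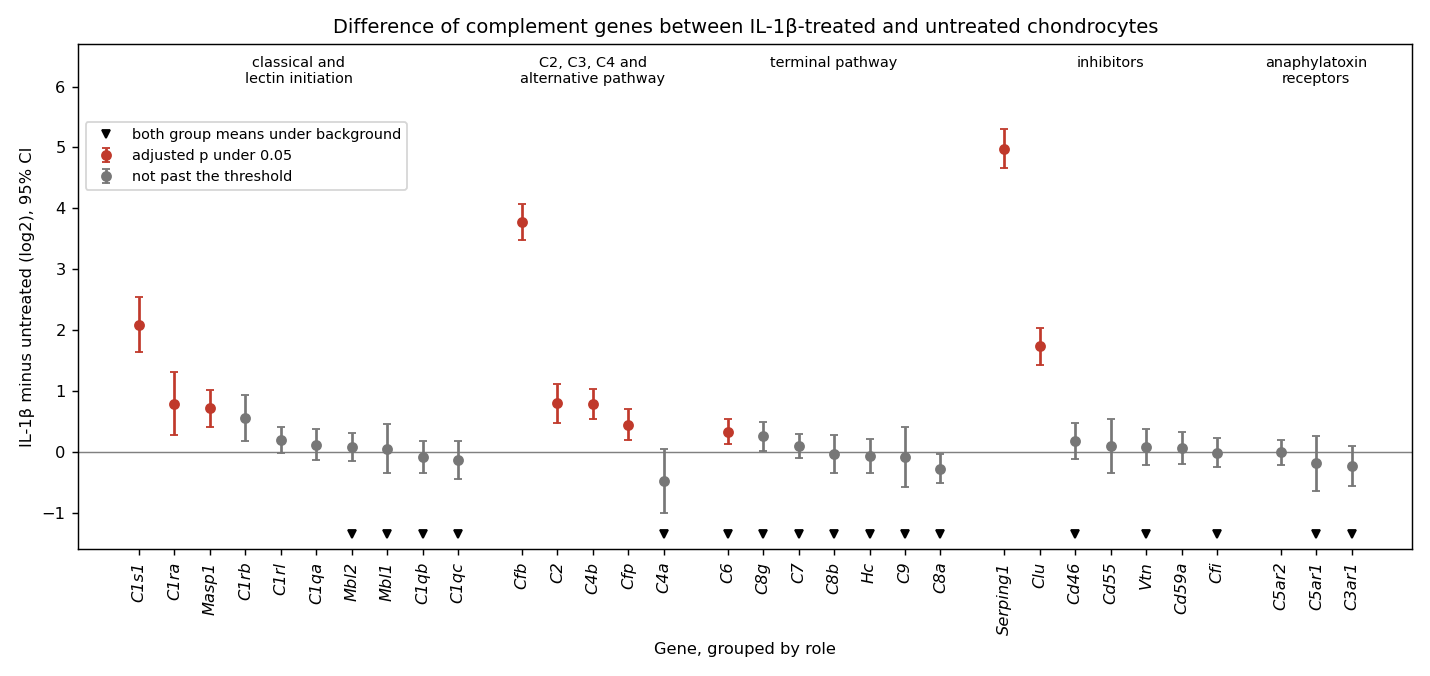
Difference of the group means, IL-1β minus untreated, on the log2 scale with 95% confidence intervals from limma (y axis) for 32 complement genes (x axis, grouped by role), 3 arrays per group. Red points passed at an adjusted p under 0.05, gray points did not, and black triangles near the bottom mark genes with both means under background. The points of Serping1 (4.98), Cfb (3.77), C1s1 (2.09) and Clu (1.73) are the only ones past 1.

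All 7 genes of the terminal pathway, Hc (complement C5), C6, C7, C8a, C8b, C8g and C9, lay under background in both groups. The membrane attack complex is built from the products of these genes, many of which come from the liver. C6 was the only one of the 7 that passed, where 8.32% of all genes were higher. Its log2 signal was 4.07, 3.97 and 4.03 on untreated arrays and 4.30, 4.38 and 4.38 on IL-1β arrays, and the difference was 0.33 (SE 0.09, adjusted p = 0.0346 from limma). No fold is given for C6, since both means lay under background, and leaving out each array in turn lost the call every time (adjusted p = 0.0650 to 0.106). Of the others, C7 (0.09) and C8g (0.25) had all IL-1β arrays above the untreated ones and C8a (-0.28) had all below, and none of the 3 passed (adjusted p = 0.109 to 0.588). Differences of Hc, C8b and C9 lay between -0.08 and -0.03.

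Among inhibitors, 2 of 7 were higher, against 8.32% of all genes. Serping1 encodes C1 inhibitor, a serpin that inactivates C1r, C1s and the MASP proteases. Its log2 signal was 4.46, 4.43 and 4.28 on untreated arrays and 9.29, 9.16 and 9.67 on IL-1β arrays. The gene thus went from under background in all untreated cultures to a bright signal in all treated ones. Serping1 was at least 27.9-fold higher (difference as measured 4.98, SE 0.14, adjusted p = 1.65e-07 from limma).

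Clu encodes clusterin, an extracellular chaperone that also blocks assembly of the membrane attack complex. It had 7.05, 7.37 and 7.56 on untreated arrays and 9.01, 9.09 and 9.09 on IL-1β arrays. The treated arrays of Clu were close to each other and all above the untreated ones. Clu rose 3.33-fold (log2 difference 1.73, SE 0.13, adjusted p = 4.55e-05 from limma).

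The other 5 inhibitors, of which some sit on the cell membrane and some are secreted, did not pass. Cd59a, a mouse gene of the membrane attack inhibitor CD59, lay well above background. Its means were 7.60 ± 0.07 (SD, n = 3 arrays) untreated and 7.67 ± 0.19 (SD, n = 3 arrays) treated. The interval of its difference ran from -0.20 to 0.33. Cd55, the gene of decay-accelerating factor, had means of 5.45 ± 0.44 and 5.54 ± 0.08 (SD, n = 3 arrays each) and an interval from -0.34 to 0.53. These intervals leave room for changes of up to 0.33 and 0.53 on the log2 scale. Cd46, which encodes membrane cofactor protein, lay under background in both groups, with a difference of 0.18. So did Cfi and Vtn, which encode the secreted proteins factor I and vitronectin, with differences of -0.01 and 0.08.

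None of the 3 anaphylatoxin receptor genes passed (limma called 0 at the adjusted p and 0 at an unadjusted p under 0.05, and the methods' t-test called 0). Since 8.32% of all genes were higher and 8.88% lower, a count of 0 among 3 genes says little. C5ar2, the gene of the second C5a receptor, had a steady signal just above background, 4.82, 4.97 and 4.91 untreated and 4.83, 4.95 and 4.89 treated, with an interval of -0.22 to 0.20 for the difference. C3ar1 and C5ar1, the genes of the C3a receptor and the first C5a receptor, lay under background in both groups, with differences of -0.24 and -0.19. C5ar1 had a treated spread from 3.73 to 4.59, and without its highest array, IL-1β replicate 2, it passed as lower (-0.44, adjusted p = 0.0479 from limma).

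**Figure D3:**
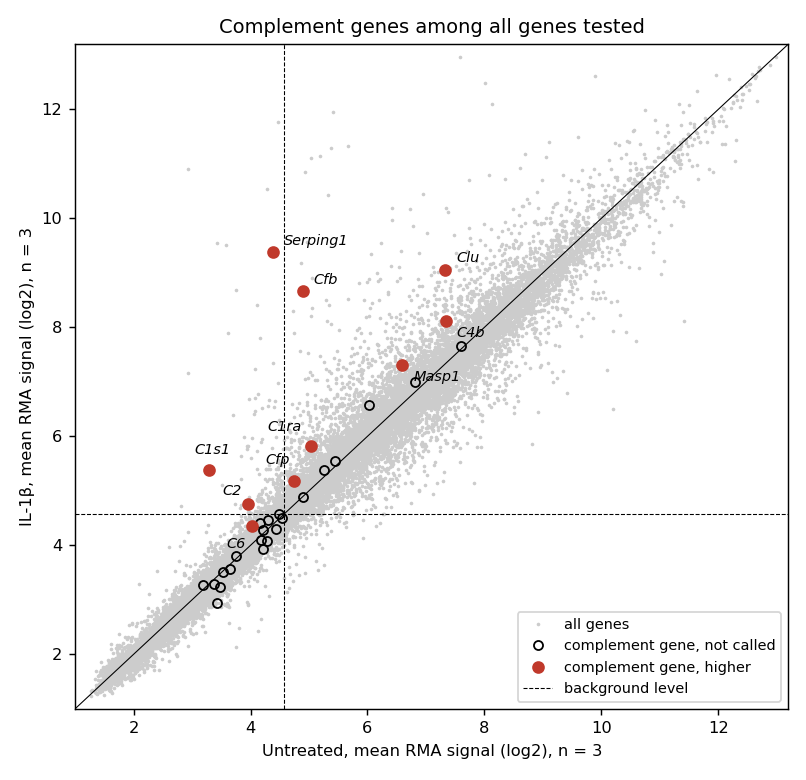
Mean RMA signal on the log2 scale of untreated (x axis) and IL-1β arrays (y axis), 3 arrays each, for all 22180 genes (gray dots), the 10 complement genes that were higher (red, named) and the other 22 (open circles). The solid line marks equal means and the dashed lines the background level of 4.57. Serping1 and Cfb lie farthest above the line of equal means among the complement genes.

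Outside the 35 genes, a list of 34 further genes of complement recognition, regulation and receptors had 29 with a probe set of their own, and 19 of these lay under background in both groups. By the same test 2 of the 29 were higher, against 8.32% of all genes, and 1 was lower, against 8.88%. Ptx3, which encodes pentraxin 3, a soluble pattern-recognition molecule that binds C1q, had 8.19, 8.34 and 7.68 untreated and 10.84, 10.76 and 10.79 treated. With no overlap between groups, Ptx3 rose 6.60-fold (log2 difference 2.72, SE 0.16, adjusted p = 1.24e-05 from limma). Colec12, a collectin and scavenger receptor gene, rose from 9.42, 9.41 and 9.36 to 10.20, 10.17 and 10.26, which is 1.76-fold (0.81, SE 0.09, adjusted p = 2.80e-04 from limma). C1qbp, whose mainly mitochondrial product also binds C1q, fell by 0.63 on the log2 scale (SE 0.11, adjusted p = 0.00418 from limma), from 9.13, 8.94 and 9.21 to 8.57, 8.47 and 8.36. Cr1l, which encodes Crry, the widely expressed mouse membrane regulator of C3 convertases, had means of 7.61 and 7.58 and an interval for the difference from -0.22 to 0.16.

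Of the 10 genes that were higher, 7 passed whichever 1 of the 6 arrays was left out (Serping1, Cfb, Clu, C1s1, C4b, C2 and Masp1). The other 3 (Cfp, C6 and C1ra) lost the threshold with at least 5 of the 6. Serping1, Cfb, Clu, C1s1 and C4b also passed under all 8 other settings, including the methods' t-test, where C2 and Masp1 did not pass (adjusted p = 0.0619 and 0.0631).

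**Figure D4:**
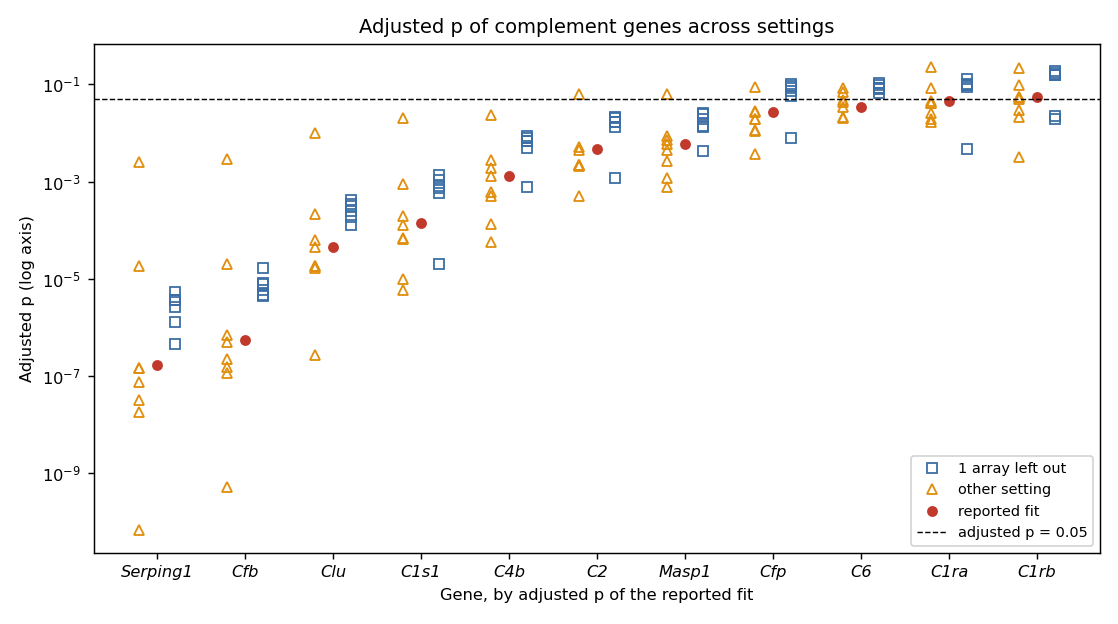
Adjusted p (y axis, log scale) of the 10 complement genes that were higher and of C1rb (x axis) in the reported fit (red circles), with 1 array left out (blue squares) and under other settings (orange triangles), with a dashed line at 0.05. The symbols of Serping1, Cfb, Clu, C1s1 and C4b all lie under the line, C2 and Masp1 have 1 triangle each above it, and the symbols of Cfp, C6, C1ra and C1rb lie on both sides.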

How the data were processed

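Articular chondrocytes treated with IL-1β (3 samples) or left untreated (3 samples) were profiled on Affymetrix GeneChip mouse ST arrays. The authors normalized the probe signals of this data set by RMA with the affy package, and the deposited values are log2 signals for 41345 probe sets (0.909 to 13.04), used as deposited. All columns of per-sample values were used. Array medians lay between 4.66 and 4.73, and arrays correlated at 0.981 to 0.990 within and 0.965 to 0.977 between groups.

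Genes were named from the platform annotation, updated through Entrez IDs with RefSeq of GRCm38.p6. Of the probe sets, 23521 name 1 gene, 1820 several and 16004 were not listed. A probe set with more than 1 symbol was not used for any gene. For 1082 genes with several probe sets, the brightest on average across all arrays was taken. The background level, 4.57, is the 95th percentile of the means of 1443 olfactory, vomeronasal and taste receptor probe sets.

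The comparison used lmFit and eBayes (limma 3.58.1, R 4.3.3) with no filter, no covariate and Benjamini-Hochberg adjustment over 22180 genes, and the fit was tested on simulated data. Intervals are at 95%. Exact permutation of 3 and 3 arrays has 0.1 as its smallest p, so no such test is reported. The number of arrays limits the precision. Alternatives were a replicate block, the methods' t-test, a trend and robust variance prior, array weights, dim genes left out, the mean of probe sets, a second quantile normalization, median centering and each array left out. The methods combine their t-test with a limit of 1 on the absolute log fold change. Use of that limit, on the log2 scale, for limma calls was added after seeing the data.

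Deviations from the group means of arrays with the same number correlated across genes at 0.101, 0.379 and 0.189, all above the 0.1 set for pairing, but neither the labels nor the methods say what a number stands for. The methods name no pairing, so the unpaired fit was kept. Every member with a probe set of its own is reported, and of the further complement genes those that passed, with Cr1l and Ptx3. An item withheld for evaluation is not reported here. The members and lists were chosen with earlier results of these data known.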

Additional observations from a re-analysis of the deposited data

Results flagged for a closer look

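The dimmer probe set of C1s1, which the comparison did not use, was higher on all 3 IL-1β arrays (4.55, 4.52 and 4.51) than on the untreated arrays (3.91, 3.94 and 4.10), a log2 difference of 0.54. It is listed because it carries a signal outside the main measurement. Both of its means (3.98 and 4.53) lay under the background level of 4.57. Groups of 3 arrays are too small for a check of single arrays that stand apart from their group.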

How the results depend on the processing

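The count of 10 complement genes that were higher ran from 7 to 9 with 1 array left out, and that of 0 lower ones from 0 to 1, with C5ar1 as the 1 without IL-1β replicate 2. With the replicate block the counts were 10 and 0 (further complement genes 2 and 1), with the block changing no call. The methods' t-test called 6 complement genes higher and, over all genes, 1315. With 1 array left out, limma called 1315 to 1746 of all genes higher and 1345 to 1786 lower. With the fold limit of 1, limma called 4 complement genes higher and the methods' t-test 4, adjusted or not. Of the further complement genes, array weights gave 5 higher and 2 lower, where over all genes they gave 2656 and 2889. Each of the 3 counts with the fold limit gave 1 higher and 0 lower among these further genes. Over all genes, 1846 were higher and 1969 lower, against 500 and 321 with the fold limit and 463 and 299 for the methods' t-test with it (497 and 320 unadjusted). Beside the reported fit, 818 values of single genes were recomputed, of which 37 crossed the threshold and 0 reversed a call, while 49 values of genes called in neither fit changed sign. For C1s1 the mean of its probe sets lowered the difference from 2.09 to 1.31. C6 did not pass with the robust, trended prior (adjusted p = 0.0849) or with median centering (adjusted p = 0.0705). With array weights C1ra did not pass (adjusted p = 0.0837) and C1rl passed (adjusted p = 0.0452). The cause of these differences was not tested. Signals near background limit what can be said of C6, C2 and the receptor genes.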
